A study of Mus musculus with 4 samples.

Results

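The levels of 8 well-known long noncoding RNAs were followed in mouse vascular smooth muscle cells (VSMCs) after silencing of *Mettl14*: the nuclear-retained RNAs *Malat1* and *Neat1*, the imprinted RNAs *Meg3*, *H19* and *Kcnq1ot1*, and the snoRNA host RNAs *Gas5*, *Snhg1* and *Snhg12*. These RNAs were chosen by name, as the rows of the count table that carry these symbols, and were 8 of 48587 genes listed. All 8 were among the 18916 genes that passed the filter on low counts. The study asked how Mettl14, a subunit of the enzyme complex that writes N6-methyladenosine (m6A) into RNA, affects VSMCs. Its mRNA sequencing held 4 libraries, 2 from cells given the control hairpin (shCTR A and shCTR B) and 2 from cells given a hairpin against *Mettl14* (shMettl14 A and shMettl14 B). The cells were primary VSMCs grown out from the descending aorta of adult C57BL/6J mice, 8 to 12 weeks old, with no other allele or agent named. Both groups carried a lentivirus: shCTR expressed a hairpin against a plant microRNA sequence, ath-miR-159, with GFP. No source used here states whether A and B mark separate animals, cultures or days, so that p-values measure only the spread between these libraries, which may be technical.

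Long noncoding RNAs act as RNA and not through a protein. *Malat1* gathers in nuclear speckles beside splicing factors, and *Neat1* is the scaffold on which paraspeckles are built. Imprinted RNAs are made from only the maternal or only the paternal chromosome and sit in clusters of imprinted genes, some of which they silence in cis. snoRNA host genes carry in their introns the small nucleolar RNAs that guide modification of ribosomal RNA, while the spliced exons are largely by-products that the cytoplasm degrades through nonsense-mediated decay. The m6A mark is placed in the nucleus by METTL3 with METTL14, often within a GGACT context, and *MALAT1* is among its best-known noncoding carriers.

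The libraries were prepared from poly-A RNA, and the 3′ ends of these RNAs, where a tail would be added, are shown first. The mature *Malat1* and the long *Neat1* isoform have no conventional poly-A tail and end instead in an encoded A-rich tract that folds into a triple helix. A run of 10 bases that both tracts share, the last bases of long *Neat1*, is in capitals in these 2 stretches, taken from the mouse genome (GRCm38) and the GENCODE M21 transcripts. The first was chr19:5795982-5796011 and the second chr19:5824708-5824737, both on the minus strand.
*Malat1*, A-rich tract: ttccctagctttaaaaaaaaAAAAGCAAAA
*Neat1*, long isoform, last bases: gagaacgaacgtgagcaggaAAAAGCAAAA
The tract of *Malat1* lay 292 bases before the annotated end of the gene, and the tract of *Neat1* formed the end of the annotated long transcript. The run AAAAGCAAAA, searched on the sense strand of 112703 transcripts of at least 200 bases, was present in 1.20% of them.

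A conventional polyadenylation signal, AATAAA or its variant ATTAAA, was found close to an annotated end of each of the 8 genes, and for *Neat1* at the end of its short isoform of 3004 bases. The signal is in capitals in these stretches. They were, in order, chr19:5795694-5795723, chr19:5842309-5842338, chr12:109571691-109571720, chr7:142575533-142575562, chr7:143203466-143203495, chr1:161038505-161038534, chr19:8726412-8726441 and chr4:132310992-132311021. *Malat1*, *Neat1*, *H19* and *Kcnq1ot1* are read from the minus strand and the others from the plus strand.
*Malat1*: ttgattttatgaAATAAAaactaaatatct
*Neat1*, short isoform: cctttacagcaaAATAAAggtttgagattg
*Meg3*: catggtgctttcAATAAAtttcttgtttta
*H19*: cctgggtccatcAATAAAtacagttacagt
*Kcnq1ot1*: accatctctaatAATAAAgacattaaaatc
*Gas5*: taaaattttaccATTAAAgtgtattataac
*Snhg1*: gtttgttctagcAATAAAtgctctttatgc
*Snhg12*: tgcagttggttcAATAAAgacttttggaaa
AATAAA was present in the last 60 bases of 30.6% of the same transcripts, so that its presence is common. The 2 isoforms of *Neat1* share their 5′ part and are counted in a single row of the table, and their levels could not be separated.

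The motif GGACT, the core of the sequence in which METTL3 and METTL14 place m6A, is shown because the study lowered *Mettl14*. The site nearest to the 3′ end of the longest transcript is given for each gene that held one. The coordinates were, in order, chr19:5796709-5796733, chr19:5825243-5825267, chr12:109570270-109570294, chr7:142576275-142576299 and chr7:143205987-143206011, and the *Gas5* site crosses an exon junction.
*Malat1*: ttagcagtggGGACTaccctaccgt
*Neat1*: gaaggcaggtGGACTcactcatctg
*Meg3*: attctaaggtGGACTtggctgtgcc
*H19*: ttgaatccggGGACTtctttaagtc
*Kcnq1ot1*: tgggtatgggGGACTttcaggatag
*Gas5*: aggcttacgaGGACTcgtcaggaag
GGACT occurred 9 times in the longest *Malat1* transcript, 23 times in *Neat1*, 16 times in *Meg3*, 6 times in *H19*, 80 times in *Kcnq1ot1* and 1 time in *Gas5*, and these letters were not found in the longest *Snhg1* or *Snhg12* transcript. Per kilobase, *H19* had the highest density, 2.62, and *Kcnq1ot1* the lowest among those with a site, 0.859. Over the longest transcripts of 48549 genes the median was 0.886 per kilobase and 70.4% held at least 1. A motif match is a description of sequence, and m6A was not measured in these libraries. The study profiled m6A in VSMCs with either hairpin by sequencing immunoprecipitated methylated RNA, and those data were not used here.

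The targeted gene was lower in both libraries labelled shMettl14. *Mettl14* had 2050 and 2154 counts in shCTR A and B and 546 and 568 counts in shMettl14 A and B, which left 23.6% of the shCTR level (log2 fold change -2.08, SE 0.25). Levels are given as CPM, a gene's counts as parts of the library total, which was scaled by the trimmed mean of M values (TMM). Library totals lay between 114343653 and 124815868 counts, at which a count of 0 leaves room for 3 counts, or 0.0240 to 0.0262 CPM. VSMC markers were abundant and summed to 8193 and 6668 CPM in shCTR A and B against 5219 and 5527 CPM in shMettl14 A and B, so that the groups did not overlap. *Acta2* and *Tagln* made up most of each sum. Both shMettl14 libraries lay below both shCTR libraries for 4 of the 11 markers and above for 0 (13.3% and 14.7% of all genes). *Myh11* followed the letter, at 338 and 233 CPM in the A libraries and 101 and 75.0 CPM in the B libraries. *Myocd* did so in the other direction, at 0.546 and 0.918 CPM in A and 7.10 and 6.60 CPM in B. None of these 11 markers passed the test across all genes, and their median log2 fold change was -0.51. All 10 endothelial markers were also detected, and the list summed to 4160 CPM in shCTR B against 1952 to 2665 CPM in the other libraries. Of the 10, 7 were highest in shCTR B, and *Tie1*, *Esam* and *Cldn5* were not. *Emcn*, an endothelial sialomucin with the largest share of the sum in shCTR B, was at 649 and 2099 CPM in shCTR and 484 and 1077 CPM in shMettl14, a log2 fold change of -0.82 where the median of the list was -0.12. Summed leukocyte markers (11.2 to 15.3 CPM) and adipocyte markers (7.53 to 9.29 CPM) were low, fibroblast markers summed to 206 to 291 CPM, and neural and Schwann markers to 101 and 105 CPM in shCTR and 63.0 and 72.4 CPM in shMettl14. The cultures thus held transcripts of more than 1 cell type, and the part of these differences in the results for the long noncoding RNAs was not tested. In such bulk samples, fewer cells of a type and less RNA per cell cannot be told apart.

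*Malat1* had by far the most CPM of the 8 RNAs, and *H19* and *Kcnq1ot1* were not abundant in these cells. Levels between genes were compared as CPM per kilobase of annotated exon, over all 4 libraries. The exon bases were those of all annotated transcripts of a gene together, retained introns included. They were 3760 for *Gas5* and 2969 for *Snhg1*, whose longest transcripts without a retained intron had 665 and 709 bases. The distance of *Malat1* from *Gas5* per kilobase thus depends on the length used. The mean was 284 ± 60.1 (SD, n = 4) for *Malat1*, 48.4 ± 8.69 for *Gas5*, 25.7 ± 6.79 for *Neat1* and 25.7 ± 4.84 for *Meg3*. It was 12.6 ± 0.864 for *Snhg1*, 9.64 ± 2.43 for *Snhg12*, 0.391 ± 0.0688 for *H19* and 0.0944 ± 0.0313 for *Kcnq1ot1*. Each RNA was above the next in this order in 4 of 4 libraries with no overlap of their ranges, with 1 exception. *Neat1* and *Meg3* overlapped, and *Neat1* was the higher in 2 of 4 libraries. A gene's length was the same in all 4 libraries, so that their agreement does not test the choice of length. *Neat1* was divided by 20771 bases, while its short isoform has 3004. With other lengths the order could differ, and this was not tested. Among 27856 genes with a count and a single match in the annotation, *Malat1* stood at percentile 99.6 and *H19* and *Kcnq1ot1* at percentiles 52.0 and 38.3. The low value of *Kcnq1ot1*, an unspliced RNA, is spread over 93092 annotated bases. All 8 RNAs together took 0.270% and 0.301% of the counts in shCTR A and B and 0.393% and 0.333% in shMettl14 A and B.

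**Figure D1:**
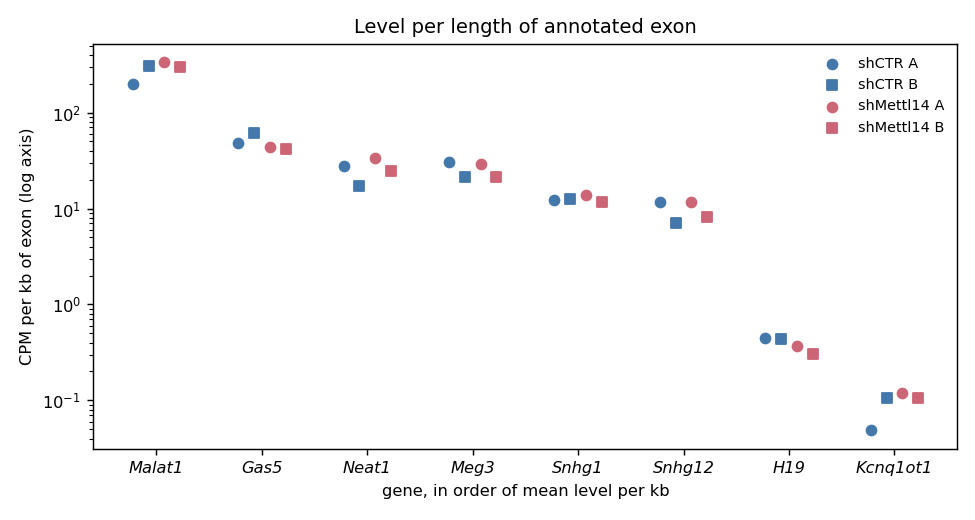
Level of each long noncoding RNA in CPM per kilobase of exon (log axis), with a point for each of the 4 libraries. *Malat1* lies highest at a mean of 284, *Neat1* and *Meg3* share a level of 25.7, and *H19* and *Kcnq1ot1* lie below 1.

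None of the 8 RNAs passed an adjusted p under 0.05 between shMettl14 and shCTR in the quasi-likelihood test of edgeR (adjusted p = 1.0 for each, Benjamini-Hochberg, over 18916 genes). The background was the same: 0% of all genes passed, *Mettl14* included, so that the absence of a call among the 8 says little about them. At an unadjusted p under 0.05, 0 of 8 were past the threshold against 1.67% of all genes, and the smallest unadjusted p was 0.15, for *Gas5*. By DESeq2, 0 of 8 passed an adjusted p under 0.05 (background 0.0172%) and 0 of 8 an unadjusted p under 0.05 (background 1.52%). The fitted log2 fold change was above 0 for 5 (background 51.2%) and below 0 for 3, with a median of 0.07 beside 0.01 over all genes, whose quartiles were -0.21 and 0.25. The shMettl14 libraries both lay above the shCTR libraries for 1 RNA, *Kcnq1ot1* (background 14.7%), and both lay below for 2, *H19* and *Gas5* (background 13.3%). With 2 libraries a group, the smallest two-sided p that an exact permutation test allows is 0.333.

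**Figure D2:**
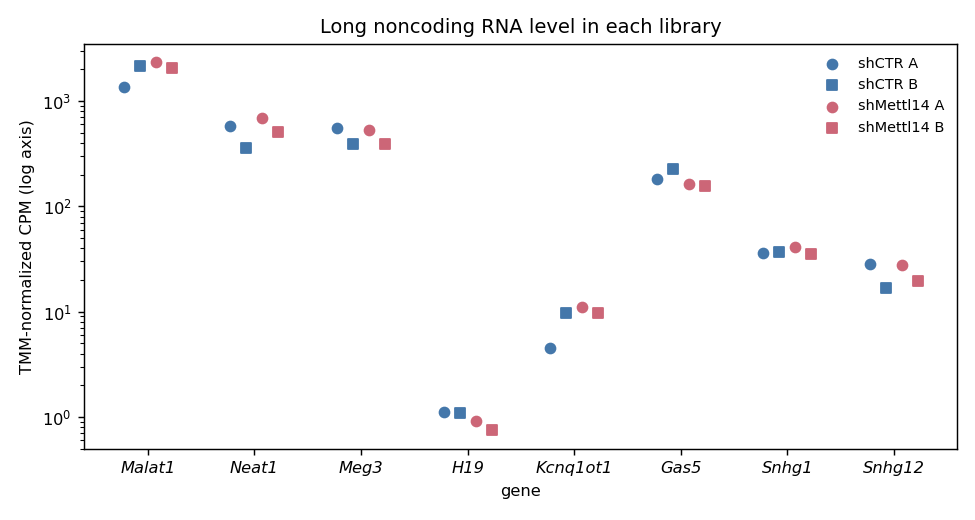
CPM of each RNA, with a point for each of the 4 libraries. The shMettl14 points lie above both shCTR points for *Kcnq1ot1*, below both for *H19* and *Gas5*, and within or across the shCTR range for the other 5.

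*Malat1*, the speckle RNA (chr19:5795690-5802672, minus strand), stood apart in a single control library. It was measured at 1374 and 2147 CPM in shCTR A and B and at 2331 and 2079 CPM in shMettl14 A and B. shCTR A was the low library, and the other 3 lay close together, so that the groups overlapped. The mean was 1760 ± 546 CPM in shCTR and 2205 ± 178 CPM in shMettl14 (SD, n = 2 each). This gave a log2 fold change of 0.32 (SE 0.27, 95% interval -0.38 to 1.03), and 36.8% of all genes had a difference at least as large in either direction. The log2 ratio of shMettl14 to shCTR was 0.76 between the A libraries and -0.05 between the B libraries. Scaled by library totals instead, the values were 1346 and 2028 CPM in shCTR and 2414 and 2166 CPM in shMettl14, and the groups no longer overlapped.

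*Neat1*, the paraspeckle scaffold (chr19:5824708-5845478, minus strand), lies close to *Malat1* on the same strand. It was at 576 and 357 CPM in shCTR A and B and at 695 and 509 CPM in shMettl14 A and B. The A library was the higher in both groups, and shMettl14 was the higher within both letters, with log2 ratios of 0.27 and 0.51. Since shCTR A lay above shMettl14 B, the groups overlapped, with means of 466 ± 155 and 602 ± 131 CPM. The log2 fold change was 0.37 (SE 0.32, 95% interval -0.44 to 1.18). *Malat1* and *Neat1* differed in their order of libraries: B exceeded A by a log2 ratio of 0.64 for *Malat1* in shCTR, where *Neat1* had -0.69.

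The proteins that share these nuclear bodies also had no member past the test. Of 17 paraspeckle proteins the median log2 fold change was 0.0048, with both shMettl14 libraries above both shCTR libraries for 3 and below for 2 (background 14.7% and 13.3%). *Nono*, a core paraspeckle protein, was at 284 and 394 CPM in shCTR and 217 and 299 CPM in shMettl14 (log2 fold change -0.39, SE 0.28). Its partner *Sfpq* was at 146 and 165 CPM in shCTR and 177 and 188 CPM in shMettl14 (log2 fold change 0.23, SE 0.19), without overlap. The RNA-binding protein *Hnrnph3* had a log2 fold change of -0.26. Of 15 speckle or *Malat1*-binding proteins the median was -0.03, with 0 above and 2 below (the same background). *Elac2*, the RNase Z that cuts the small tRNA-like RNA released from the *Malat1* end, was at 31.3 and 32.0 CPM in shCTR and 25.6 and 28.4 CPM in shMettl14 (log2 fold change -0.23), the exon junction factor *Rnps1* at -0.33 and the splicing factor *Srsf3* at 0.23.

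*Meg3*, the maternally expressed RNA of the *Dlk1*-*Dio3* cluster (chr12:109541001-109571726, plus strand), had nearly the same level with either hairpin and differed between the letters. It was at 551 and 389 CPM in shCTR A and B and at 527 and 388 CPM in shMettl14 A and B. Both A libraries lay above both B libraries. The group means were 470 ± 115 and 458 ± 98.2 CPM, and the fitted log2 fold change was -0.04 (SE 0.28, 95% interval -0.75 to 0.68). The interval still allows changes of about the size fitted for any of the other 7 RNAs. Scaling by library totals turned this value to 0.068.

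The other genes of the *Meg3* cluster varied widely in level. *Rian*, a noncoding RNA from the same strand that hosts snoRNAs, was at 219 and 185 CPM in shCTR and 209 and 190 CPM in shMettl14 (log2 fold change -0.02). *Mirg*, a host of microRNAs further along, was at 7.96 and 7.68 CPM in shCTR and 5.44 and 4.38 CPM in shMettl14, with both shMettl14 libraries below (log2 fold change -0.67, SE 0.29, adjusted p = 1.0 in edgeR). *Mirg* thus lay lower with the *Mettl14* hairpin while *Meg3* and *Rian* had values near 0, a difference that was not itself tested. The paternally expressed *Dlk1* and *Rtl1* were each below 1 CPM in all 4 libraries. *Rtl1* had 76 and 67 counts in shCTR and 49 and 42 counts in shMettl14, with both shMettl14 libraries below (log2 fold change -0.81, SE 0.47). For *Dlk1* the log2 fold change was -0.54 (SE 0.70), and the groups overlapped. *Dio3*, which encodes a deiodinase, was at 2.42 and 2.49 CPM in the A libraries and 0.0556 and 0.0846 CPM in the B libraries, a separation by letter and not by hairpin.

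*H19*, a maternally expressed RNA and host of a microRNA (chr7:142575529-142578143, minus strand), was scarce. It had 126 and 117 counts in shCTR A and B and 108 and 97 counts in shMettl14 A and B. In CPM these were 1.11 and 1.08 against 0.910 and 0.746, and both shMettl14 libraries lay below both shCTR libraries. The means were 1.10 ± 0.0184 and 0.828 ± 0.116 CPM, and the fitted log2 fold change was -0.41 (SE 0.41, 95% interval -1.45 to 0.64), with log2 ratios of -0.28 and -0.53 within the letters. *Igf2*, the paternally expressed growth factor gene beside it, had 166 and 21 counts in shCTR and 134 and 79 counts in shMettl14, where the A library was the higher of each pair (log2 fold change 0.07). *Mrpl23*, a ribosomal protein gene on its other side, had a log2 fold change of -0.38.

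*Kcnq1ot1*, the paternally expressed antisense RNA of the *Kcnq1* cluster (chr7:143203458-143296549, minus strand), had the largest fitted difference of the 8, and a single control library set it. It had 514 and 1052 counts in shCTR A and B and 1319 and 1274 counts in shMettl14 A and B. In CPM these were 4.53 and 9.74 against 11.1 and 9.80: shCTR A was less than the other 3, and shMettl14 B stood barely above shCTR B. The means were 7.13 ± 3.69 and 10.5 ± 0.928 CPM. The fitted log2 fold change was 0.55 (SE 0.43, 95% interval -0.56 to 1.66), and 19% of all genes had a difference at least as large. The log2 ratio was 1.29 between the A libraries and 0.0081 between the B libraries. *Kcnq1* itself, read from the opposite strand, overlaps the antisense RNA in part of its exons. Whether the authors counted by strand is not given in the sources used here. In all, 1.20% of the *Kcnq1ot1* bases lie under exons of the opposite strand. *Kcnq1* exons share 121 of these bases, and the other genes there are annotated as miscellaneous RNAs.

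The other genes listed for the *Kcnq1ot1* cluster had no member past the test. Which of them *Kcnq1ot1* silences in these cells was not tested. Of 7 tested, 6 had a log2 fold change below 0 and 1 above, beside 51.2% above 0 over all genes, and *Kcnq1*, *Ascl2* and *Tspan32* among them were each below 1 CPM. *Cdkn1c*, a cell cycle inhibitor, was at 0.678 and 1.70 CPM in shCTR and 0.674 and 1.37 CPM in shMettl14 (log2 fold change -0.22). *Slc22a18*, a transporter gene, was at 12.1 and 3.15 CPM in shCTR and 8.70 and 3.41 CPM in shMettl14, a log2 fold change of -0.33. *Cd81*, a tetraspanin gene, was at 752 and 446 CPM against 588 and 492 CPM, a log2 fold change of -0.15. *Tssc4* was at 79.4 and 28.3 CPM in shCTR and 45.2 and 25.0 CPM in shMettl14 (log2 fold change -0.62). For the last 3, both A libraries exceeded the B library of the same hairpin, and the groups overlapped. *Phlda2* was too low to pass the filter. Among 43 imprinted genes tested, of 48 listed, 0 were past the test in either direction, the median log2 fold change was 0.07, and both shMettl14 libraries lay above for 4 and below for 5 (background 14.7% and 13.3%). *H13*, a signal peptide peptidase gene, was at 384 and 305 CPM in shCTR and 270 and 220 CPM in shMettl14 (log2 fold change -0.49), and *Ppp1r9a* had a log2 fold change of 0.44.

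*Gas5*, with 10 annotated snoRNA genes inside it (chr1:161034422-161038539, plus strand), had the smallest p of the 8. It was at 181 and 229 CPM in shCTR A and B and at 163 and 157 CPM in shMettl14 A and B. Both shMettl14 libraries lay below both shCTR libraries, and shCTR B was the highest. The means were 205 ± 34.1 and 160 ± 4.38 CPM. The fitted log2 fold change was -0.36 (SE 0.21, 95% interval -0.90 to 0.19). Within the letters, the log2 ratio was -0.15 for A and -0.55 for B.

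*Snhg1*, with 8 snoRNA genes inside it (chr19:8723475-8726443, plus strand), differed little between any of the 4 libraries. It was at 36.3 and 37.1 CPM in shCTR and 41.0 and 35.1 CPM in shMettl14, where the shMettl14 libraries were the highest and the lowest of the 4. Its log2 fold change was 0.05 (SE 0.20, 95% interval -0.47 to 0.57), the narrowest interval among the 8. Scaled by library totals, both shMettl14 libraries (42.5 and 36.5 CPM) lay above both shCTR libraries (35.6 and 35.0 CPM). By that scaling the groups were apart in this direction for 3 of the 8, *Malat1*, *Kcnq1ot1* and *Snhg1*, against 21.5% of all genes, and apart in the other direction for *H19* and *Gas5*, against 8.22%.

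*Snhg12*, with 5 snoRNA genes inside it (chr4:132308623-132311024, plus strand), followed the letters. It was at 28.2 and 16.8 CPM in shCTR A and B and at 28.0 and 19.6 CPM in shMettl14 A and B, both A libraries above both B libraries. Its log2 fold change was 0.08 (SE 0.35, 95% interval -0.82 to 0.98). Between 17.8% and 20.9% of the exon bases of *Gas5*, *Snhg1* and *Snhg12* overlap other annotated genes on the same strand. How reads there were assigned is not given in the sources used here.

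The start of each host RNA is shown because snoRNA host genes often begin with a pyrimidine run (the 5′ terminal oligopyrimidine type shared with ribosomal protein mRNAs). The run is in capitals in the first 30 bases of a transcript of each gene, at chr1:161035163-161035192, chr19:8723475-8723504 and chr4:132308676-132308705 on the plus strand.
*Gas5*: agCCTTTCggagctgtgcggcattctgagc
*Snhg1*: gTTCTTgtcggcctcatttttccttgttcg
*Snhg12*: CCTTTCTCgcttcatccgcggtccctgtct
A run of at least 5 C or T within the first 10 bases, on the sense strand, was searched in annotated transcripts without a retained intron. It was held by 3 of 5 transcripts of *Gas5*, 2 of 4 of *Snhg1* and 6 of 10 of *Snhg12*, against 15.0% of all transcripts. The run was not particular to the host RNAs, as 5 of 11 *Meg3* transcripts held it. For *Malat1* and *Neat1* it was 1 of 4 each, for *H19* 1 of 7 and for *Kcnq1ot1* 0 of 1. The transcripts shown for *Gas5* and *Snhg12* start inside the annotated gene. In those shown for *Gas5* and *Snhg1* the run came after the first base, so that these annotated transcripts do not begin with it. Another *Gas5* transcript, of 665 bases and not shown, does begin with a run, at bases 1 to 6. Where the RNAs start in these cells was not tested.

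Other snoRNA hosts and the decay machinery gave the same picture of no calls. Of 26 other host genes tested, of 31 listed, the median log2 fold change was 0.05, and both shMettl14 libraries lay above for 5 and below for 4 (background 14.7% and 13.3%). *Snhg14*, the long host transcript of the imprinted *Snrpn*-*Ube3a* region, had the smallest unadjusted p of this list. It was at 6.77 and 7.15 CPM in shCTR and 11.3 and 14.4 CPM in shMettl14, with a log2 fold change of 0.88 (SE 0.27, adjusted p = 1.0 in edgeR). Both shMettl14 libraries lay above, by log2 ratios of 0.74 and 1.0. The chaperone and snoRNA host *Hspa8* was at 2150 and 2576 CPM in shCTR and 1684 and 1976 CPM in shMettl14 (log2 fold change -0.37), and the noncoding host *Dancr* had a log2 fold change of -0.54. Of 17 nonsense-mediated decay factors the median was -0.02, with 2 above and 5 below (the same background), and those with the smallest p were *Eif4a3* of the exon junction complex (-0.30), *Nbas* (0.30) and *Smg9* (-0.38).

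Of 21 listed genes that lie beside the 8 RNAs, 19 were tested and 0 passed the test. Their median log2 fold change was -0.08, and both shMettl14 libraries lay above for 1 of the 19 and below for 5 (background 14.7% and 13.3%). *Zbtb37*, a zinc finger gene whose span overlaps that of *Gas5* on the opposite strand, was the 1 above, at 11.4 and 17.8 CPM in shCTR and 19.9 and 22.9 CPM in shMettl14 (log2 fold change 0.55, SE 0.30), opposite in sign to *Gas5*. Around *Malat1* and *Neat1*, the log2 fold changes of *Ltbp3* and *Frmd8* were -0.04 and -0.08. *Slc3a2*, the amino acid transporter subunit gene next to *Snhg1*, was at 235 and 212 CPM in shCTR and 207 and 168 CPM in shMettl14 (log2 fold change -0.25), and the mRNA export gene *Nxf1* had 0.04. Around *Snhg12*, the values were -0.47 for *Taf12*, a subunit of the general transcription factor TFIID, -0.37 for *Trnau1ap*, -0.25 for *Phactr4* and 0.24 for *Rcc1*.

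The long noncoding RNAs listed outside the 8 had a higher median than the 8. Of 33 listed, 29 were in the table and 22 were tested, with a median log2 fold change of 0.23. Values ran from -1.68 to 2.13, with 15 above 0 and 7 below (background 51.2% above). Of the 29, 13 had a mean under 1 CPM. The list holds the small RNAs *Rmrp*, *Rpph1*, *Terc* and *Rn7sk*, which are also in the list of RNAs without a conventional tail. Both shMettl14 libraries lay above both shCTR libraries for 5 of the 22 and below for 0 (14.7% and 13.3% of all genes), and 0 were past the adjusted threshold. *Dnm3os*, a host of microRNAs in mesenchymal cells, was at 17.2 and 20.0 CPM in shCTR and 27.4 and 29.7 CPM in shMettl14 (log2 fold change 0.62, SE 0.21, adjusted p = 1.0 in edgeR). *Firre*, a nuclear RNA from the X chromosome, was at 47.0 and 46.6 CPM in shCTR and 58.6 and 63.0 CPM in shMettl14 (log2 fold change 0.38), and *2900097C17Rik* at 27.5 and 26.2 CPM against 33.4 and 32.6 CPM (log2 fold change 0.30).

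RNAs listed as lacking a conventional tail and mitochondrial RNAs also varied between libraries. Of 78 histone genes and small RNAs, listed by symbol, 46 were tested, and their median was 0.24. Whether each of them lacks a tail in these cells was not tested. Of the 78, 62 had a mean under 1 CPM, and the highest single value was 155 CPM. Both shMettl14 libraries lay above for 10 of the 46 and below for 5, where all genes had 14.7% above and 13.3% below. Their summed level was 341 and 215 CPM in shCTR A and B and 316 and 195 CPM in shMettl14 A and B, so that it followed the letter and not the hairpin. *Hist1h2bg*, *Hist1h2ad* and *Hist2h3c2*, all histone genes, had log2 fold changes of 1.08, 0.88 and -0.64. Mitochondrial genes summed to 17550 and 37567 CPM in shCTR and 18931 and 23389 CPM in shMettl14, highest in shCTR B, and the median of the 29 tested was -0.10. *mt-Tl1* and *mt-Tn*, both tRNA genes, had log2 fold changes of 0.91 and 1.06, and *mt-Co2*, a cytochrome oxidase subunit gene, had -0.52. The part of these differences in the values of *Malat1* and *Neat1* was not tested.

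**Figure D3:**
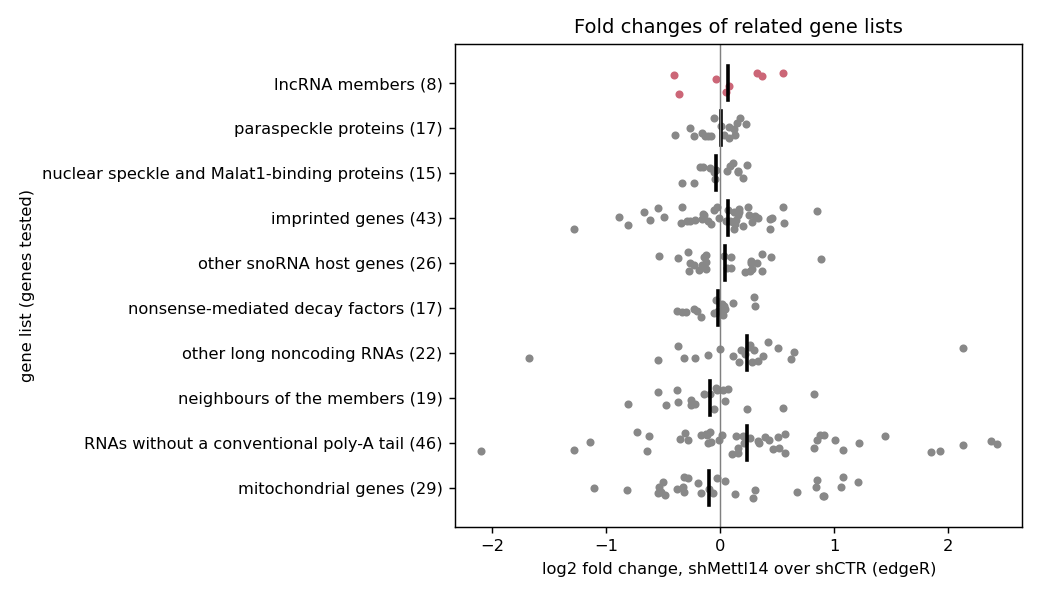
Log2 fold change of shMettl14 over shCTR for each tested gene of the listed groups, with a bar at the group's median. Marker lists are not plotted. Among the lists plotted, the medians run from -0.10 for mitochondrial genes to 0.24 for RNAs listed as without a conventional tail. The 8 long noncoding RNAs have a median of 0.07.

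The difference between the letters was larger than that between the hairpins for 4 of the 8 RNAs, against 64.2% of all genes. Each difference was the absolute mean of 2 log2 ratios, in which ratios of opposite sign partly cancel. The 4 were *Snhg12*, *Neat1*, *Meg3* and *Snhg1*, and *Snhg1* had small ratios of B to A, 0.03 in shCTR and -0.23 in shMettl14. In shCTR, the log2 ratio of B to A was -0.75 for *Snhg12*, -0.69 for *Neat1* and -0.50 for *Meg3*, and in shMettl14 it was -0.52, -0.45 and -0.44. These 3 RNAs thus differed by letter in the same direction with both hairpins. *Kcnq1ot1* and *Malat1* did not: their ratios were 1.10 and 0.64 in shCTR and -0.18 and -0.17 in shMettl14. Within the letters, shMettl14 was the higher in both for 2 RNAs, *Neat1* and *Kcnq1ot1* (background 30%), and the lower in both for 3, *Meg3*, *H19* and *Gas5* (background 27.6%).

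**Figure D4:**
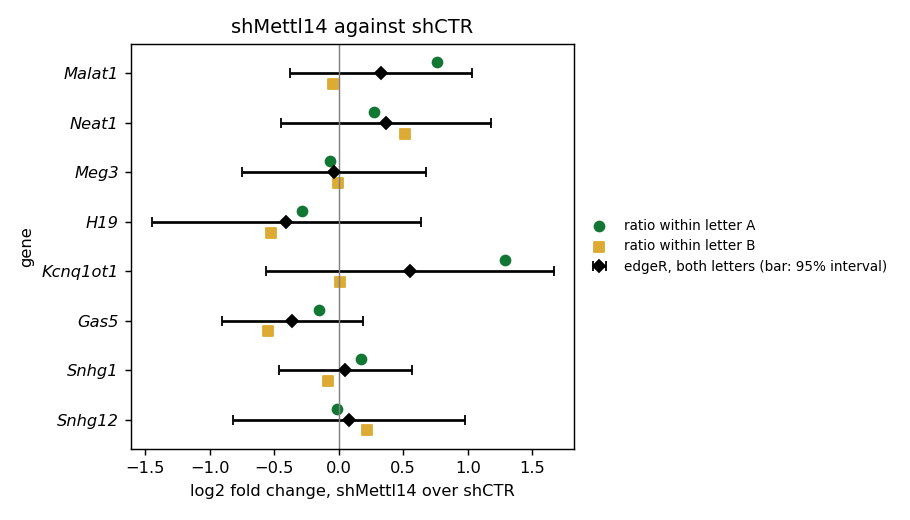
Log2 fold change of shMettl14 over shCTR for the 8 RNAs, with the fitted value and its 95% interval and the ratios within letters A and B. Every interval crosses 0, and the A and B ratios of *Malat1* and *Kcnq1ot1* lie furthest apart (0.76 and -0.05, 1.29 and 0.0081).

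Leaving out 1 library at a time showed which values rest on a single library, with the lone library of a group assumed to vary like the others. Without shCTR A, the log2 fold change of *Kcnq1ot1* was 0.11 and that of *Malat1* 0.04. Without shCTR B they were 1.20 and 0.68. *H19* and *Gas5* were below 0 whichever library was left out, between -0.55 and -0.26 for *H19* and between -0.51 and -0.18 for *Gas5*. As both shMettl14 libraries lay below both shCTR libraries for *H19* and *Gas5*, the sign could hardly change, and its constancy adds nothing. *Neat1* ran from 0.06 without shCTR B to 0.76 without shCTR A, and it stayed above 0. *Meg3* (-0.27 to 0.24), *Snhg1* (-0.064 to 0.16) and *Snhg12* (-0.25 to 0.51) changed sign with the library left out.

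**Figure D5:**
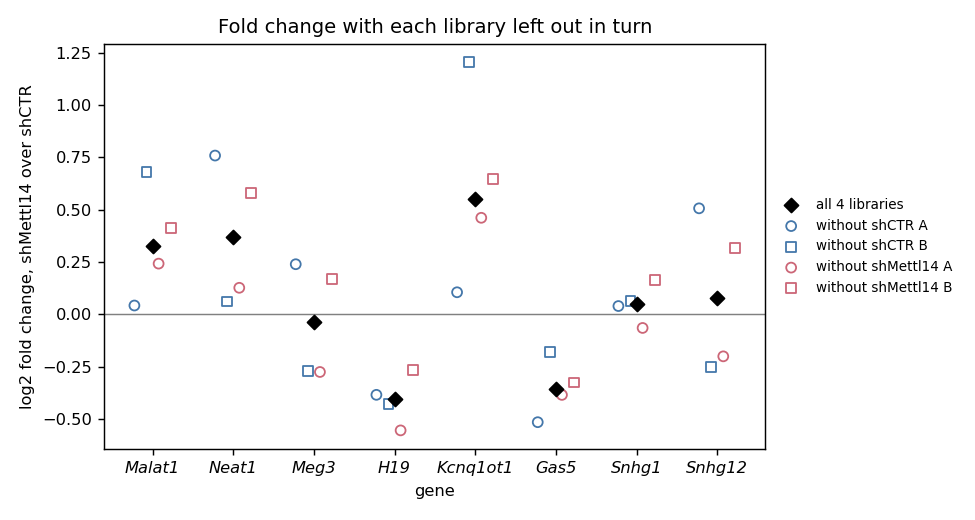
Log2 fold change of each RNA with all 4 libraries and with each library left out in turn. The values without shCTR A and without shCTR B lie far apart for *Kcnq1ot1* (0.11 and 1.20), *Neat1* (0.76 and 0.06) and *Malat1* (0.04 and 0.68), and those of *Snhg1* lie closest to 0.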

How the data were processed

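Poly-A RNA of 4 libraries was sequenced. Raw read counts per gene symbol were deposited by the authors, who mapped stranded paired-end reads to mm10 (Ensembl 86) with STAR and counted them with featureCounts, per the submitters' processing notes and the study's methods. The tools' versions and the strand setting are not given in the sources used here. The authors' counts were not normalized, and all 4 columns were used. Library totals (depth) and the 3-count limit stand in the report and cover counting error only.

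Genes passing filterByExpr were fitted with edgeR 4.0.16 (R 4.3.3; TMM factors, robust quasi-likelihood test, 2 shMettl14 against 2 shCTR libraries, no covariate), with Benjamini-Hochberg adjustment over all 18916 genes and a threshold of 0.05. Fold changes are those of the fit, with SE from its F statistic, and log2 ratios within a letter used log2 CPM with a prior count of 2. The script was tested on simulated data. Alternatives were DESeq2 1.42.0, library totals, RLE or upper-quartile factors in place of TMM, other filters (at least 10 counts in every library, or no filter beyond 1 count), a prior count of 0.5, a replicate block and leaving out each library. Group means are given with SD. Gene positions, overlaps and sequences came from GRCm38 with GENCODE M21, a later annotation than that of the authors.

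The 8 RNAs and all gene lists were chosen with earlier results of these data known. Named genes were the 8, *Mettl14*, from each list the 3 genes of smallest unadjusted p with a mean of at least 1 CPM, neighbours with a mean of at least 1 CPM, and the 2 genes of at least 10 CPM nearest in profile to each RNA. Marker genes and the other genes of the imprinted clusters were named in addition, after their values were seen. A few genes chosen this way are not reported here.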

Additional observations from a re-analysis of the deposited data

How the results depend on the processing

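No call among the 8 RNAs or the lists was made under any alternative. Over all genes, edgeR called 0 and 315 had an unadjusted p under 0.05, DESeq2 called 5 and the fit with a replicate block called 9, and leaving out 1 library gave 0 to 1 (*Alb*, without shCTR B). Under the block, 2 of the 8 had an unadjusted p under 0.05, *Neat1* (adjusted p = 0.45 by edgeR's quasi-likelihood test) and *Kcnq1ot1* (adjusted p = 0.48), against 10.3% of all genes. *Mettl14* had an adjusted p of 1.0 in edgeR, 3.0e-07 in DESeq2 and 0.0039 with the replicate block. Libraries of the same letter deviated together (correlation across genes 0.58), but no label says that letters mark a shared culture. Scaling by library totals moved the median of all genes from 0.01 to 0.12 and the log2 fold change of *Meg3* from -0.04 to 0.068, a change of sign, with *Meg3* then still below the median. Leaving out 1 library gave -0.27 to 0.24 for *Meg3*, -0.064 to 0.16 for *Snhg1* and -0.25 to 0.51 for *Snhg12*, each with a change of sign. The causes were not tested. The low counts of *H19* and the 2 libraries a group limit what can be seen.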

Other observations

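The genes whose 4 log2 CPM values, centred on their mean, were most like those of each RNA were found among 9092 genes with a mean of at least 10 CPM, by Euclidean distance over the 4 libraries. For *Malat1* they were *Sik2*, a salt-inducible kinase gene (distance 0.0646), and *F5*, coagulation factor V (0.0704). For *Neat1* they were *Sall2* (0.0569) and *Mtss1* (0.0661), for *Meg3* *St6galnac4* (0.0264) and *Bloc1s5* (0.0279), and for *H19* the nearest was *Dtnbp1* (0.0283). For *Gas5* they were *Hnrnph2* (0.0416) and *Bcor* (0.0423), for *Snhg1* *Snx33* (0.0240) and *Hsdl2* (0.0247), and for *Snhg12* *Tsen54* (0.0254) and *Ndrg3* (0.0411).

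*Kcnq1ot1* had the fewest genes within a set distance. The nearest were *Nr2c2* (0.161) and *Uprt* (0.200), and 3 genes lay within a distance of 0.25, against 86 for *Malat1* and 1028 for *Snhg1*. The values were not scaled by their spread, so that a set distance tends to hold fewer genes for an RNA that varies more. *Kcnq1ot1*, at a mean of 8.79 CPM, was also below the 10 CPM asked of the compared genes. With 4 libraries such distances describe these libraries alone. Among the 8 themselves, *Meg3* and *Snhg12* were nearest to each other (0.227), both higher in the A libraries, and *Malat1* and *Kcnq1ot1* were nearest to each other (0.437), both lowest in shCTR A.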
